A study of Rattus norvegicus with 2 samples.

Results

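Globin-rich cells of the erythroid lineage made up 102 of 4199 kept cells in the dexamethasone library and 132 of 8044 kept cells in the control library, 234 of 12243 cells in all. A cell was counted as globin-rich when it had at least 200 detected genes, at most 20% of its unique molecular identifiers (UMIs, 1 per captured RNA molecule) from mitochondrially encoded genes and at least 20% from 9 haemoglobin symbols, Hbb, Hbb-bs, Hba-a1, Hba-a2, Hba-a3, Hbe1, Hbe2, Hbg1 and Hbz. The cells were thus chosen by their measured haemoglobin levels, which are given only as a description. Mitochondrially encoded genes, here and below, are those whose symbols begin with Mt-. The label held against its other markers: Alas2, Ahsp and Slc4a1, which the rule did not use, were found in most or many of these cells and were nearly absent from all other kept cells.

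The study asked how a glucocorticoid given before birth affects microglia of the rat hippocampus. Cells sorted by flow cytometry as microglia were sequenced in droplets from male embryos at gestational day 20, with 7 embryos pooled in each library. The first library came from embryos exposed to dexamethasone, a synthetic glucocorticoid, and the second from unexposed controls, and the dose and timing of dexamethasone are not given in the sources used here. The files hold 4328 barcodes with 42611920 UMIs for dexamethasone, and 8342 barcodes with 69940778 UMIs for control, with 5 barcode sequences in both libraries and 0 of them in a globin-rich cell. With 1 library per group no test can be made, so every difference is between these 2 pools, the exposure and a difference between library preparations cannot be told apart, and intervals at the 95% level cover counting error only.

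Erythroid cells are the source of red blood cells. In a late rodent fetus, definitive erythroblasts mature mainly in the liver, lose their nucleus and enter the blood as reticulocytes, while primitive erythroid cells of the yolk sac belong to an earlier wave and carry embryonic globins. As the cells mature they make haem in mitochondria, fill with haemoglobin, build a spectrin-based membrane skeleton, and then clear mitochondria and ribosomes while their remaining RNA decays. Red cells are not part of the hippocampal tissue itself and reach a brain cell suspension with the blood in its vessels.

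Globin-rich cells were a small share of each sort, 2.43% of kept cells in the dexamethasone library (exact Clopper-Pearson interval 1.98 to 2.94%) and 1.64% in the control library (1.37 to 1.94%). A flow gate for microglia sets this share, so it does not measure how many erythroid cells the tissue held. The direction also turned with the gene minimum: at 500 genes or more, the share was 0.490% for dexamethasone and 0.867% for control. The choice of cells was sharp in both libraries. The lowest globin-rich cell had 23.1% of its UMIs from the 9 symbols in dexamethasone and 20.9% in control cells, and the highest cell outside had 12.8% and 0.792%, with 0 cells between 15 and 20% in either. That highest dexamethasone cell outside the rule reached 25.9% once every haemoglobin gene of the annotation was counted.

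The minimum of 200 genes acted unequally on the libraries. Among barcodes that failed the cell filters, 36 of 129 in the dexamethasone library (27.9%, interval 20.4 to 36.5%) and 11 of 298 in the control library (3.69%, 1.86 to 6.51%) were rich in globin, and all of them had fewer than 200 genes. With these barcodes included, globin-rich barcodes came to 138 of 4328 in the dexamethasone library (3.19%, 2.69 to 3.76%) and 143 of 8342 in the control library (1.71%, 1.45 to 2.02%). Few detected genes beside a very high haemoglobin share were thus the common form of these barcodes, as the plot of haemoglobin share against gene number shows.

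**Figure D1:**
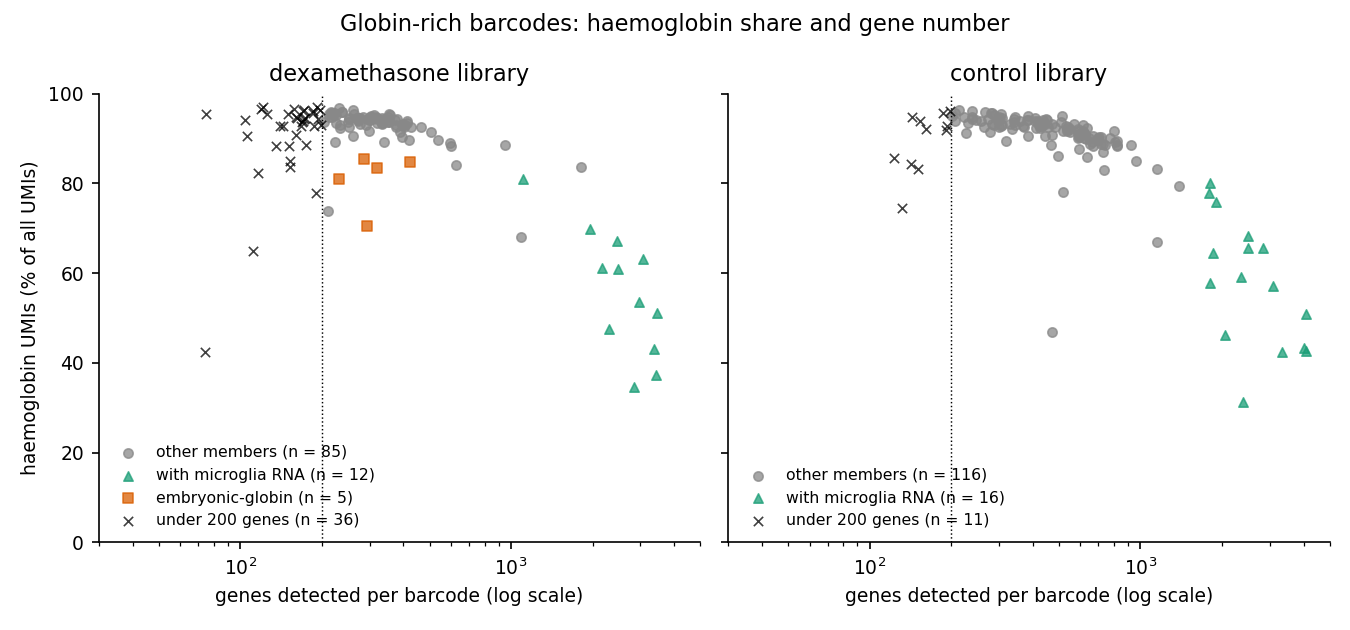
Each point is a globin-rich barcode of the dexamethasone library (left) or the control library (right), with genes detected on a log axis and all haemoglobin UMIs as a percentage of its UMIs; the dotted line marks 200 genes. Barcodes with microglia RNA (12 and 16) lie at 1109 genes or more, the 5 embryonic-globin cells occur in the dexamethasone library, and barcodes under 200 genes number 36 and 11.

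Most of the RNA in these cells was haemoglobin RNA. All haemoglobin genes together took a median of 93.4% of UMIs per cell in dexamethasone and 91.9% in control cells, against medians of 0.0214% and 0.0494% in all other kept cells. The globin-rich cells held medians of 18218 UMIs but 319.5 genes in the dexamethasone library and 21306 UMIs but 509.5 genes in the control library. Other kept cells held medians of 8844 UMIs and 2593 genes in the dexamethasone library, and 7532.5 UMIs and 2375 genes in the control library. Globin-rich cells thus had more RNA counted per cell and far fewer kinds of it.

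A gene outside the rule carried much of this. Hbbl1, a beta-like globin gene listed in the deposited annotation only as LOC100134871, took 30.3% of all UMIs of globin-rich cells in dexamethasone and 23.9% in control cells. Of haemoglobin UMIs, Hbbl1 held 34.7% in dexamethasone and 27.6% in control cells, Hba-a1 28.9% and 29.9%, and Hba-a2 16.5% and 20.3%. The other adult-type beta genes held less, with Hbb-bs at 15.5% in dexamethasone and 17.0% in control cells and Hbb at 3.02% and 5.23%. Alpha-like over beta-like UMIs came to 0.842 in dexamethasone and 1.01 in control cells, and the same ratio in the traces of haemoglobin RNA in other kept cells was 0.768 and 1.15. Some of these genes are close copies, and how alike their transcribed sequences are was not measured here. Reads of close copies can be split or dropped in counting. The shares of single alpha or beta copies, and with them the ratio, are therefore uncertain.

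The sequence just before the start of transcription shows how alike the adult beta copies are, and how they differ from the embryonic genes that separated a small set of cells. Of 11 haemoglobin genes in the files, 9 had a promoter entry in RefSeq for the GRCr8 assembly, matched by symbol or gene ID. The 110 bases before the annotated start are shown 5′ to 3′ for the embryonic genes Hbe1 and Hbz and for 4 genes of adult-type haemoglobin. Capitals mark CACCC (a motif bound by Klf1 and related factors), CCAAT and the TATA-like ATAAA on either strand; the 2 CCAAT matches of Hbb on opposite strands lie next to each other.
Hbe1: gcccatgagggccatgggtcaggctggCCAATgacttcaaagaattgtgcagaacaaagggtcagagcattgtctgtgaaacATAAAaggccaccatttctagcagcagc
Hbz: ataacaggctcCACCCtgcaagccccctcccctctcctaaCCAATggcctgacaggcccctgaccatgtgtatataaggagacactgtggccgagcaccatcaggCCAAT
Hba-a1: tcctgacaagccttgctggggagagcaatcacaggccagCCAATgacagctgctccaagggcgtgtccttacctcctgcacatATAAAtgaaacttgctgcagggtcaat
Hbb: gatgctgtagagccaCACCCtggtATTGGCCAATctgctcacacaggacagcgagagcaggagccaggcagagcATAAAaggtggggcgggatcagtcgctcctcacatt
Hbb-bs: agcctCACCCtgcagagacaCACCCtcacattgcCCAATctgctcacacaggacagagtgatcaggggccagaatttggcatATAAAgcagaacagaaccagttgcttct
Hbbl1: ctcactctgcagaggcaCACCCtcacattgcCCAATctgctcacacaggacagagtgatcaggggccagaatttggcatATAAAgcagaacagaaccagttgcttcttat

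In GRCr8, all on the minus strand, these windows are chr1:167696281-167696390 for Hbe1, chr10:15849758-15849867 for Hbz, chr10:15842581-15842690 for Hba-a1, chr1:167663722-167663831 for Hbb, chr1:167631631-167631740 for Hbb-bs and chr1:167650236-167650345 for Hbbl1. Hbbl1 and Hbb-bs shared 105 of 113 aligned positions (92.9%), Hbbl1 and Hbb 68.1%, and Hba-a2 and Hba-a1 95.5%. The embryonic Hbe1 window was 54.6% identical to that of Hbbl1, and Hbz 47.4% identical to Hba-a1. All 6 windows held CCAAT, which 18.5% of 33469 promoter windows of the same length hold. CACCC, present in 27.6% of windows, was found in Hbz, Hbb, Hbb-bs and Hbbl1, and ATAAA, present in 19.9%, in each window but that of Hbz. GATAA, the core of a GATA1 site, was searched too, occurs in 10.1% of windows and was in none of these 6. Such matches describe letters and do not show binding.

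Embryonic globins set apart 5 cells of the dexamethasone library. Hbe1 (the epsilon-type beta-like globin), Hbz (zeta, the embryonic alpha-like globin), Hbg1 and Hbe2 together held 67.7%, 66.7%, 63.1%, 61.3% and 59.7% of their haemoglobin UMIs. The next dexamethasone cell was at 2.48%, and the highest of the 132 control cells at 0.061%. These 5 cells carried 18593 of the 18961 Hbe1 UMIs and all 4746 Hbz UMIs of the globin-rich dexamethasone cells, against 12 Hbe1 UMIs and 1 Hbz UMI in all globin-rich control cells. A further 2 dexamethasone barcodes with fewer than 200 genes had most of their haemoglobin UMIs from embryonic genes, up to 98.4%, and 0 such control barcodes were found. A count of 0 in 132 control cells allows a share of up to 2.76%, and the 5 of 102 dexamethasone cells were 4.90% (interval 1.61 to 11.1%).

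The embryonic-globin cells held 3216 to 18766 UMIs and 232 to 422 genes. Adult beta-like RNA was scarce in them, with 1 to 549 Hbbl1 UMIs per cell, while Hba-a1 and Hba-a2 still gave 21.2% and 11.1% of their haemoglobin UMIs. Alpha-like over beta-like UMIs, embryonic genes included, were 0.825 in these 5 cells and 0.842 in the other 97 dexamethasone cells. Other kept cells of the dexamethasone library held 83 Hbe1 and 16 Hbz UMIs, and those of the control library held 2 and 0; the source of these UMIs was not tested. The stacked plot of haemoglobin genes shows these shares side by side.

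**Figure D2:**
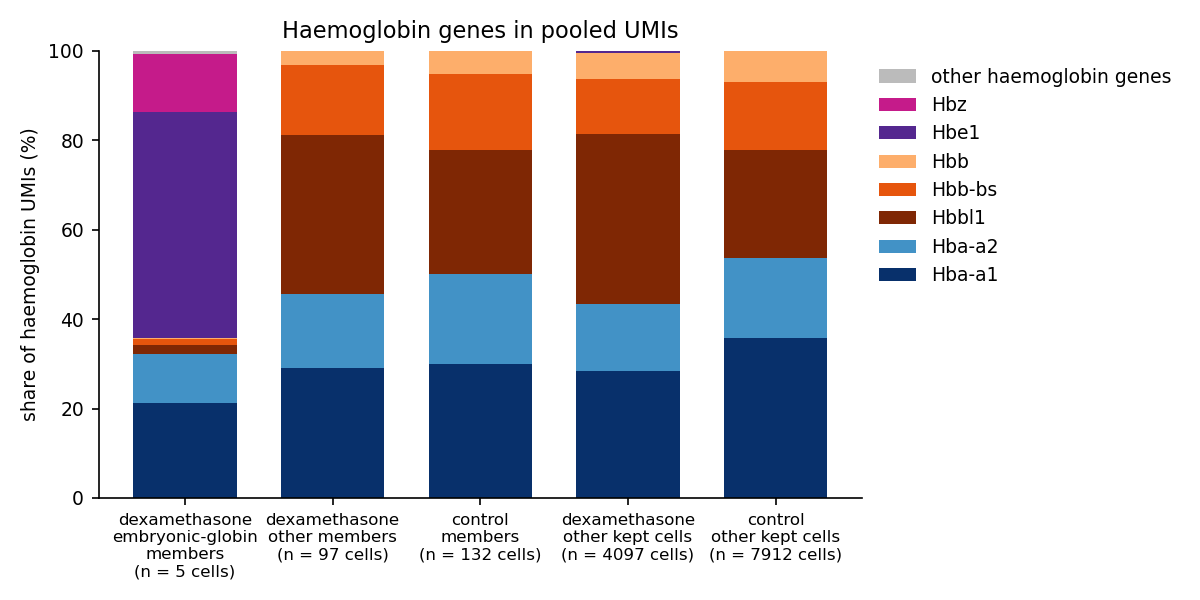
Bars give each haemoglobin gene's share of pooled haemoglobin UMIs in the 5 embryonic-globin cells and the other 97 globin-rich cells of the dexamethasone library, the 132 globin-rich control cells, and all other kept cells of each library. Hbe1 and Hbz fill 50.6% and 12.9% of the first bar and at most 0.459% and 0.0885% of the others.

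Outside haemoglobin, the 5 cells also differed from the remaining 85 dexamethasone globin-rich cells low in microglia RNA. Levels here and below are CPM, a gene's UMIs scaled to a common total of non-haemoglobin UMIs, with every haemoglobin gene left out of the total. Of 105 genes with at least 20 UMIs counted in the 5 cells or expected there from the others, 37 were at least 2-fold higher (35.2%) and 27 at least 2-fold lower (25.7%). Most of the higher genes encode ribosomal proteins, such as Rpl23a (log2 ratio 3.39). The ribosomal protein genes Rpl41, Rps2 and Rps23 were at least 2-fold lower (-1.03, -2.94 and -3.58). Mdk, the growth factor midkine, had 58 UMIs spread over all 5 cells, against 1 UMI in the other 85. Fth1, the ferritin heavy chain, stood at 129928 CPM against 28774 CPM, a log2 ratio of 2.17 (interval 2.07 to 2.28). Several genes that were high in the other 85 cells were low. Alas2 had 3 UMIs against 1035 UMIs in the other 85 (log2 CPM ratio -4.47, interval -6.75 to -2.92). Slc25a39, a mitochondrial carrier, had 1 UMI against 762 (-5.62, -10.92 to -3.13). Ybx3 stood at 1207 CPM against 24236 CPM. Ahsp, which binds free alpha globin, had 9 UMIs in the 5 cells (1207 CPM against 11587 CPM), and Slc4a1, the anion exchanger band 3, had 0. The 5 cells hold 7458 non-haemoglobin UMIs in all, so only large differences could be seen.

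Some globin-rich cells also carried the RNA of microglia. A gap in the data separated 12 of 102 dexamethasone and 16 of 132 control cells in which 16 microglia genes, among them P2ry12, Cx3cr1 and C1qa, took 0.433 to 4.41% and 0.751 to 3.41% of all UMIs. The remaining 90 dexamethasone and 116 control cells reached at most 0.0933% and 0.183%. Cells with microglia RNA had 1109 to 3467 genes in the dexamethasone library and 1791 to 4090 in the control library, and they supplied 50.2% and 44.9% of all non-haemoglobin UMIs of the globin-rich cells. Doublets were not removed, and whether these barcodes hold a pair of cells was not tested. Results are therefore given for all globin-rich cells and, where it matters, for the 90 and 116 low in microglia RNA, a split made after the data were seen at 0.3% of all UMIs.

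In the low set the microglia genes summed to 2464 CPM in dexamethasone and 7938 CPM in control cells, against 53346 and 53014 CPM in other kept cells, and 4 and 0 of the 16 genes were at 0. Choroid plexus genes summed to 0 CPM in the dexamethasone low set and 854 CPM in the control low set, against 115 and 277 CPM in other kept cells. The platelet list had 1 UMI in all globin-rich dexamethasone cells and 0 in control cells. Neuronal genes summed to 243 and 309.7 CPM, near the 188 and 326 CPM of other kept cells. These sums rest on 30 and 62 UMIs, with 10 and 4 of the 12 genes at 0, and do not describe the neuronal list as a whole.

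Across all genes, the globin-rich cells differed widely from the other kept cells. Of 12095 genes with at least 20 UMIs in each library, 436 were at least 2-fold higher (3.6%) and 1454 at least 2-fold lower (12%) in both libraries. Many of these genes could not be seen at the depth of so few cells. Among 1943 genes with at least 20 UMIs counted or expected in globin-rich cells of each library, 217 were higher (11.2%) and 305 lower (15.7%), and in the low set 230 of 1056 were higher (21.8%) and 549 lower (52%). The scale matters for the direction: on CPM of all UMIs, haemoglobin included, the median gene moved by -2.99 and -2.90 on the log2 scale in the dexamethasone and control libraries, so each ratio below is relative to non-haemoglobin RNA.

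Most measured genes of 7 erythroid lists were high. Of 117 listed genes, 113 were in the files and 75 had at least 20 UMIs over the globin-rich cells. Of these 75, 60 were at least 2-fold higher than in other kept cells of both libraries and 2, Cited2 and Npm1, at least 2-fold lower. On CPM of all UMIs 32 of the 75 were higher, and 42 with Hbbl1 and Hbq1b kept in the total. The median log2 ratio over the lists was 3.09 in the dexamethasone and 3.70 in the control library, beside -0.73 and -0.80 over the 1943 genes. Because the minimum was set on the globin-rich cells themselves, genes low in them dropped out, and the counts describe only the measured genes. The plot by list shows the spread of each group.

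**Figure D3:**
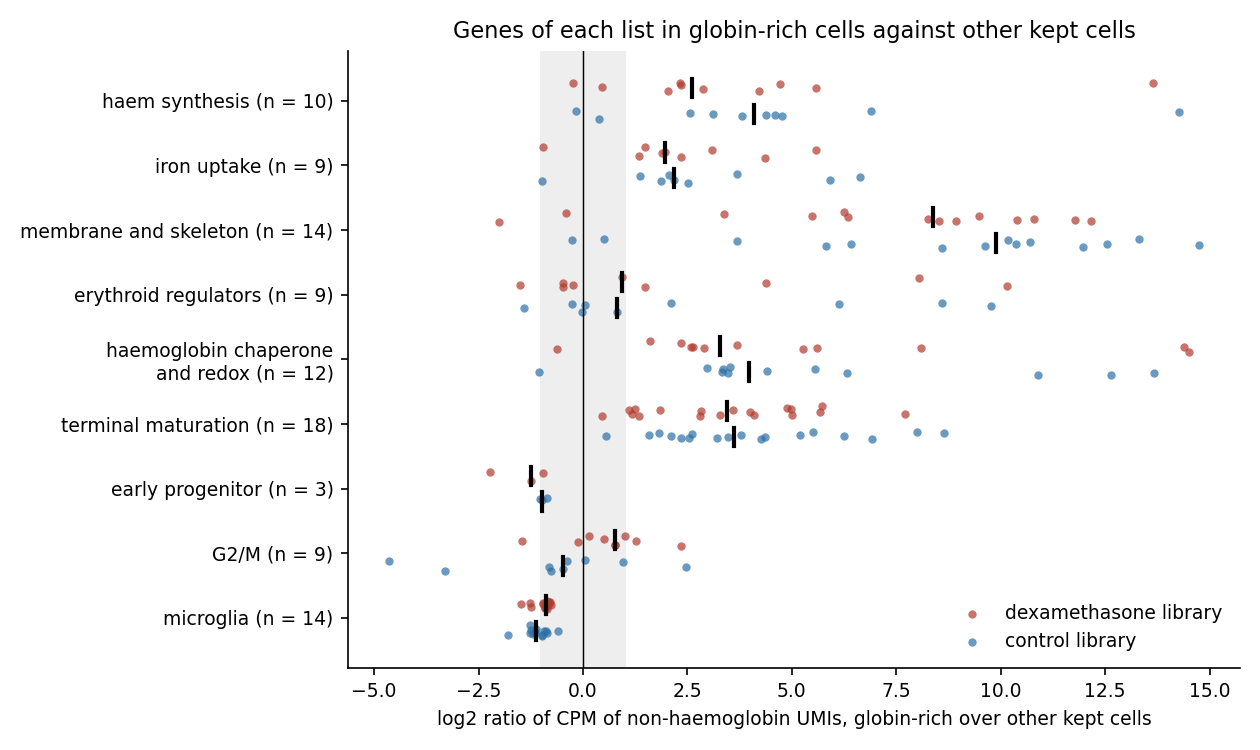
Points are genes with at least 20 UMIs over the globin-rich cells, by list; the horizontal axis gives the log2 ratio of CPM in globin-rich over other kept cells of the same library, black ticks mark medians, and the grey band spans 2-fold. Membrane and skeleton genes have medians of 8.39 in dexamethasone and 9.89 in control cells, while the 14 microglia genes have medians of -0.89 and -1.13.

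The haem synthesis list begins with Alas2, the erythroid enzyme of the first step. It had 4730.1 CPM in globin-rich dexamethasone cells (interval 4463 to 5009) and 5927 CPM in globin-rich control cells (5679 to 6183), against 0.372 and 0.3 CPM in other kept cells of the same libraries. After thinning each cell to 700 non-haemoglobin UMIs, 86.0% of 93 dexamethasone and 91.7% of 121 control cells carried an Alas2 UMI. In other cells it was 0 of 1000 drawn in each library, which allows a share of up to 0.368%. Fech, which inserts iron in the last step, stood 5.57 and 6.90 log2 above other kept cells in the dexamethasone and control libraries, and Urod and Cpox, enzymes of the middle steps, 2.88 and 4.60, and 2.32 and 3.81, though in the dexamethasone library both turned negative on CPM of all UMIs (-0.11 and -0.66). Of 10 measured genes of this list, 8 were at least 2-fold higher in both libraries. Ppox (0.46 and 0.39) and Tmem14c (-0.23 and -0.16) were not.

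Iron handling followed the same direction for 8 of 9 measured genes. Slc25a37, mitoferrin, which carries iron into mitochondria, was 4.35 and 6.64 log2 above other kept cells in the dexamethasone and control libraries, and Glrx5, which serves iron-sulphur cluster assembly, 5.59 and 5.91. The ferritin genes Fth1 and Ftl1 lay 1.97 and 2.18, and 1.34 and 1.37, above other kept cells on this scale. On CPM of all UMIs both ferritin genes were lower in globin-rich cells, Fth1 by -1.02 and -0.72 and Ftl1 by -1.65 and -1.53. Hmox1, which breaks haem down, was lower without reaching 2-fold, at -0.96 and -0.98. Tfrc, the transferrin receptor, by which immature erythroblasts take up iron, was found in 1 of 93 thinned dexamethasone and 2 of 121 thinned control cells. These shares of 1.08% (interval 0.03 to 5.85%) and 1.65% (0.20 to 5.84%) compare with 0.3% and 0.7% of thinned other cells, values inside the intervals. Unthinned, the direction turned, with 4.90% and 3.79% of globin-rich cells against 7.42% and 6.13% of other kept cells.

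Membrane and skeleton genes had the highest medians of the 7 lists. Slc4a1 had 217 UMIs in 49 of 102 dexamethasone cells and 450 UMIs in 78 of 132 control cells (876 and 1238 CPM), against 10 UMIs and 3 UMIs in all other kept cells. Rhd, an Rh blood group protein, stood 9.47 and 10.36 log2 above other kept cells. Of 14 measured genes 12 were at least 2-fold higher in both libraries. Sptb, a spectrin chain of the membrane skeleton, had 44 UMIs in dexamethasone and 65 UMIs in control cells, against 4 and 2 UMIs in all other kept cells. Cd47, a widely expressed marker of self, was below 2-fold (-0.41 and -0.26), and Add1, an adducin subunit, differed in sign (-2.02 and 0.51).

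Among regulators, Gata1 (14 and 19 UMIs, against 2 and 4 UMIs in other kept cells), Klf1 (log2 8.03 and 8.58), Nfe2 (4.37 and 6.12) and Zfpm1, the GATA1 partner FOG1 (1.48 and 2.11), were higher in both libraries. Tal1, Lmo2, Zbtb7a and Lyl1 differed by less than 2-fold, and Cited2 was lower (-1.50 and -1.42), so 4 of 9 measured regulators passed. Klf1, the factor that opens the adult beta-globin programme, had 234 CPM in dexamethasone and 465 CPM in control cells. Of 14 early progenitor genes 3 were measured, the nucleolar genes Npm1 (-1.24 and -1.03), Ncl (-0.96 and -0.97) and Nop56 (-2.23 and -0.85), and 0 were higher.

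Genes of the haemoglobin chaperone and redox list were high, with 11 of 12 measured genes at least 2-fold above other kept cells in both libraries. Ahsp stood at 5800 CPM (interval 5504 to 6107) in globin-rich dexamethasone cells and 14719 CPM (14327 to 15118) in globin-rich control cells, against 0.248 and 1.12 CPM in other kept cells. Prdx2, the red cell peroxiredoxin, was 5.26 and 5.56 log2 higher, the carbonic anhydrase Car2 3.69 and 4.40, and Gclm, a subunit of glutathione synthesis, 5.60 and 6.32. Pklr, the red cell and liver pyruvate kinase, had 132 and 105 UMIs in globin-rich cells, against 1 and 3 UMIs elsewhere. Sod1 was the exception (-0.63 and -1.04).

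Of 18 measured terminal maturation genes 17 were at least 2-fold higher in both libraries. They included Bnip3l, which directs the clearance of mitochondria (3.60 and 3.46), the iron-sulphur factor Isca1 (5.73 and 5.51), the RNA-binding protein Rbm38 (484 CPM in dexamethasone and 1489 CPM in control cells, against 15.1 and 12.3 CPM) and Ube2o, a ubiquitin enzyme that clears ribosomal proteins in reticulocytes (4.98 and 5.18). Fbxo7 was below 2-fold (0.45 and 0.55). Mitochondrially encoded RNA took a median of 0.584% of non-haemoglobin UMIs in globin-rich dexamethasone cells and 2.89% in globin-rich control cells, against 2.98% and 5.93% in other kept cells.

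Genes outside the lists were high as well. Ybx3, a cold-shock domain protein that binds RNA and represses translation, had 12854 CPM in dexamethasone and 12748 CPM in control cells, 7.13 and 7.27 log2 above other kept cells, and was found in 100 of 102 and 132 of 132 cells. Cd52, a small surface glycoprotein known from lymphocytes, had 454 UMIs in dexamethasone and 653 UMIs in control cells, against 6 and 21 UMIs in all other kept cells. Nrtn, the neurotrophic factor neurturin, was 8.30 and 8.08 log2 higher, and Cdc25b, a phosphatase of the cell cycle, 9.39 and 9.35. Lgals5, a galectin known from rat reticulocytes, had 80 and 378 UMIs, against 1 and 4 UMIs in other kept cells.

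Several of the lowest genes are known from macrophages and granulocytes. S100a9, Lyz2, Mrc1, Lcp1 and Gas6 were among the 10 lowest of the genes with at least 200 CPM in other kept cells of each library, and Mrc1, a receptor of border macrophages, stood at 101 CPM in dexamethasone and 102 CPM in control cells, against 347 and 364 CPM elsewhere (-1.78 and -1.84). The cells with microglia RNA, 12 and 16 in number, held 6282 of 6586 and 7820 of 9409 UMIs of the microglia list.

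Genes of different stages of maturation varied with the number of genes per cell. Cells with microglia RNA and embryonic-globin cells were left out for this, leaving 85 dexamethasone and 116 control cells, and barcodes under 200 genes were added as the lowest band. From under 200 genes to at least 1000, Ahsp stood at 4273, 3313, 10969, 23232 and 23859 CPM in the dexamethasone library and at 2416, 1685, 6923, 34151 and 39109 CPM in the control library. Slc4a1 stood at 128, 461, 1622, 2406 and 3229 CPM in dexamethasone and 302, 259, 574, 2613 and 3785 CPM in control barcodes. Both genes were highest in the band with most genes, which holds only 2 dexamethasone and 3 control cells, and there the Slc4a1 UMIs lay in 1 dexamethasone and 2 control cells. In that band 1 dexamethasone cell (68.0% haemoglobin) and 1 control cell (66.9%) had 0 Alas2 CPM and low Ahsp, at 2205 and 370 CPM. Whether such cells hold RNA of other cell types was not tested. The G2/M list, genes of dividing cells, summed to 574, 576, 1069, 5191 and 11750 CPM in the dexamethasone bands, and 906, 713, 915, 2314 and 6308 CPM in the control bands. In the dexamethasone library a single cell held 74 of 82 G2/M UMIs at 500 to under 1000 genes, and another 130 of 131 at 1000 or more. In the control library the highest cell held 34 of 271 and 54 of 75 UMIs of the same bands.

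Isca1 and ribosomal protein genes were lowest in the band with most genes, and Alas2 peaked in the middle. Over the same 5 bands Isca1 stood at 13904, 11408, 11098, 11458 and 5920 CPM in the dexamethasone library and at 12987, 8942, 9200, 4936 and 4205 CPM in the control library, so the dexamethasone values were nearly level but for the first and last band. Ribosomal protein genes took 31.0, 30.7, 22.0, 16.2 and 13.1% of non-haemoglobin UMIs in the dexamethasone bands, and 22.4, 28.0 and 19.6% in the lower 3 control bands and 10.8% in the highest. Alas2 was highest at 300 to under 500 genes, at 10840 CPM in dexamethasone and 10994 CPM in control cells. Across single cells, Spearman's rho between genes per cell and Ahsp CPM was 0.52 in 85 dexamethasone and 0.78 in 116 control cells, with Slc4a1 0.47 and 0.75, with Isca1 -0.13 and -0.53, with the ribosomal protein share -0.42 and -0.63, and with haemoglobin share -0.55 and -0.78. Both measures come from the same UMIs of a cell, gene number also follows its depth (rho with UMIs 0.62 and 0.70), and the values are a description.

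**Figure D4:**
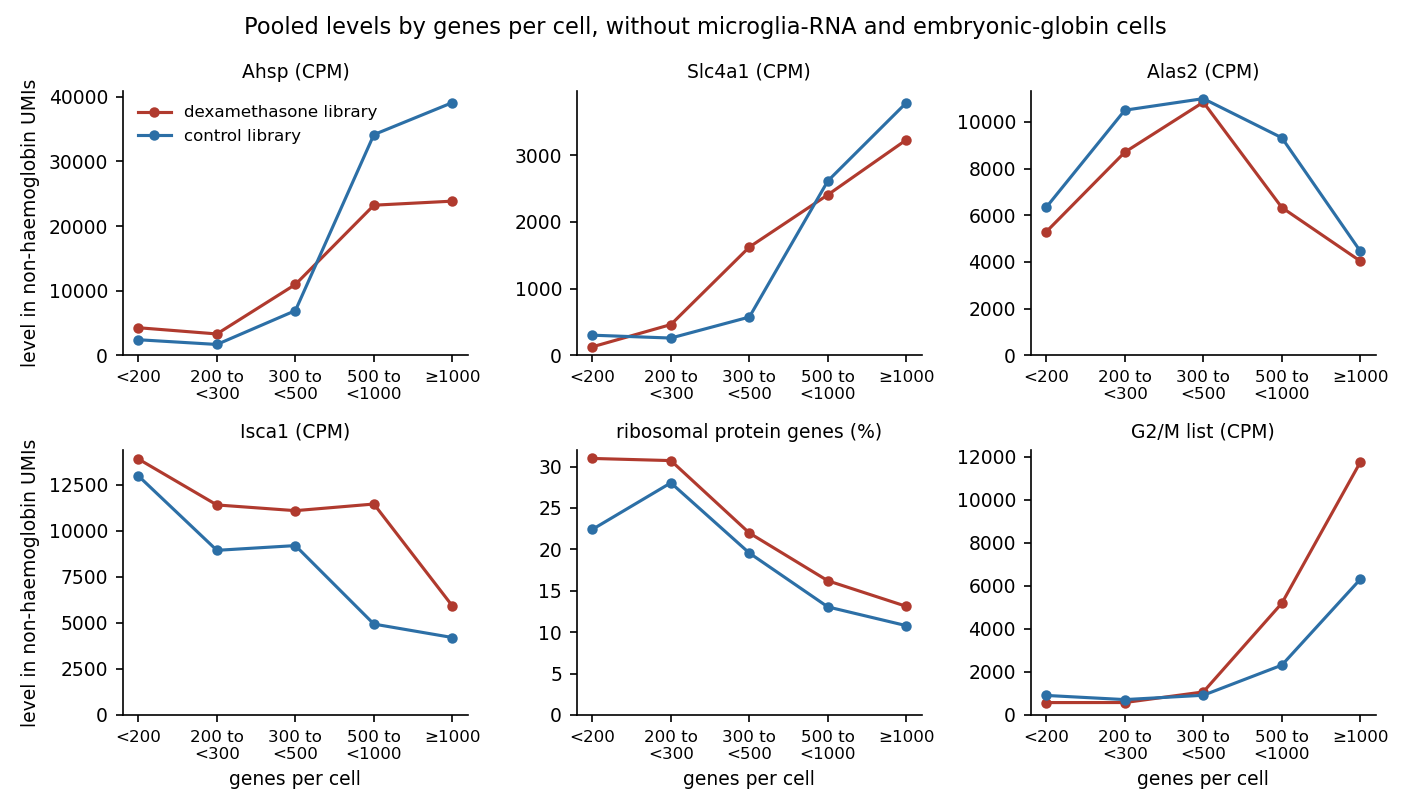
Each panel gives pooled levels over globin-rich barcodes in 5 bands of genes per cell (dexamethasone 34, 38, 39, 6 and 2 barcodes; control 9, 22, 43, 48 and 3), without cells holding microglia RNA and embryonic-globin cells; vertical axes are CPM or percent of non-haemoglobin UMIs. Ahsp, Slc4a1 and the G2/M list are highest in the bands with most genes, and the ribosomal protein share and Isca1 are lowest there.

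In the low set, with medians of 1146.5 and 1510.5 non-haemoglobin UMIs per cell, 3 of 90 dexamethasone and 12 of 116 control cells had 10 or more UMIs of the G2/M list, and the highest dexamethasone cells had 130 and 74 of the 292 G2/M UMIs of their set. After thinning, 36.6% of dexamethasone and 47.1% of control globin-rich cells carried a G2/M UMI, against 23.7% and 23.5% of other cells. These shares alone do not show division. Of 9 measured G2/M genes 1 was at least 2-fold higher than in other kept cells of both libraries and 1 at least 2-fold lower, with medians of 0.76 in dexamethasone and -0.48 in control cells. Ube2c, which had the most UMIs, was the higher one, with 102 UMIs in dexamethasone and 208 UMIs in control cells (2.35 and 2.46 log2 above other kept cells). Thinned to 700 UMIs, globin-rich cells held a median of 239 non-haemoglobin genes in dexamethasone and 289 in control cells, against 445 and 447 in other cells, with 9 and 11 globin-rich cells too shallow for the step.

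Bands of the rule's own globin share were less even between the libraries, with 8, 41, 49 and 4 dexamethasone and 8, 18, 106 and 0 control cells at 20 to 40, 40 to 60, 60 to 80 and at least 80%. In the 60 to 80% band, which has over 30 cells of each library, Ahsp stood at 8938 CPM in dexamethasone and 24022 CPM in control cells, and Alas2 at 10319 and 10206 CPM. Median genes per cell in that band were 313 and 441.5.

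The composition by gene number differed between the libraries. Of the 85 dexamethasone cells 38 had 200 to under 300 genes, 39 had 300 to under 500, and 8 had 500 or more, against 22, 43 and 51 of the 116 control cells. This difference runs through every pooled comparison of the libraries, and values within bands are given beside them.

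Pooled over all globin-rich cells, 29 of 1253 genes with at least 50 UMIs were at least 2-fold higher in the dexamethasone library than in the control library (2.31%) and 70 at least 2-fold lower (5.59%), with a median log2 ratio of -0.015. In the low set 26 of 575 genes were higher (4.52%) and 76 lower (13.2%), and 13 of the higher and 36 of the lower genes were counted in both sets. Erythroid list genes lay mostly below 0: 46 of 59 measured, with 12 at least 2-fold lower, 0 at least 2-fold higher and a median of -0.46, beside 647 of 1253 below 0 over all genes. Haem synthesis genes had a median of -0.60 (7 of 9 below 0), membrane genes -0.48 (9 of 9), chaperone and redox genes -0.76 (9 of 11), terminal maturation genes -0.40 (11 of 15) and iron genes -0.10 (4 of 8). On a total that kept Hbbl1 in, the median of all genes moved by a further -0.29, and 54 of 59 erythroid genes lay below 0.

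Ahsp was 1.34 log2 lower in the dexamethasone library (interval -1.43 to -1.26 for the log2 ratio), Slc4a1 -0.50 (-0.74 to -0.26) and Alas2 -0.33 (-0.43 to -0.22). Urod stood at 234 CPM in dexamethasone and 930.1 CPM in control cells (-1.99), Slc25a37 at 129 and 597 CPM (-2.21), and Bpgm, which makes the 2,3-bisphosphoglycerate that lowers oxygen binding, at 80.7 and 347 CPM (-2.10). Ftl1 ran the other way, at 18214 CPM in dexamethasone and 11254 CPM in control cells (0.69), as it did in other kept cells (0.73). Isca1 was 0.50 higher and Fth1 (0.02) and Bnip3l (0.04) were nearly equal. In these pooled values, lower RNA per cell and fewer cells of the stages that carry these genes cannot be told apart.

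Within bands of like gene number the direction was not the same throughout. At 300 to under 500 genes, where 39 dexamethasone and 43 control cells had medians of 1310 and 1277 non-haemoglobin UMIs, 26 of 43 erythroid genes with at least 20 UMIs were above 0 and 17 below, with a median of 0.32, beside 264 above and 215 below and a median of 0.08 over 479 genes, a share above 0 close to that of the erythroid genes. Ahsp was there 10969 CPM in dexamethasone and 6923 CPM in control cells (0.66, interval 0.48 to 0.85), Slc4a1 1622 and 574 CPM (1.50, 0.90 to 2.13), and Alas2 10840 and 10994 CPM (-0.02, -0.19 to 0.15). At 200 to under 300 genes 18 of 22 erythroid genes were above 0, with a median of 0.55, beside 141 of 255 genes and a median of 0.08 over all. At 500 genes or more, with 8 dexamethasone against 51 control cells, 40 of 61 erythroid genes were below 0 and the median was -0.44, beside 392 of 741 genes and a median of -0.07 over all.

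Single genes differed in how they behaved over the bands. Rbm38 was lower at 300 to under 500 genes (-0.93, interval -1.43 to -0.46) and at 500 or more (-1.80, -2.53 to -1.15), as it was pooled (-1.62), but higher at 200 to under 300 genes on 30 and 2 UMIs. Bpgm was lower at 300 to under 500 genes on 5 and 16 UMIs (-1.64) and at 500 or more on 2 and 90 UMIs (-3.23). Urod was -0.64 at 300 to under 500 genes with an interval that spans 0 (-1.42 to 0.12), and -1.31 at 500 or more. Gpx1, a glutathione peroxidase, differed in sign, with 1.82 at 300 to under 500 genes and -0.33 at 500 or more.

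**Figure D5:**
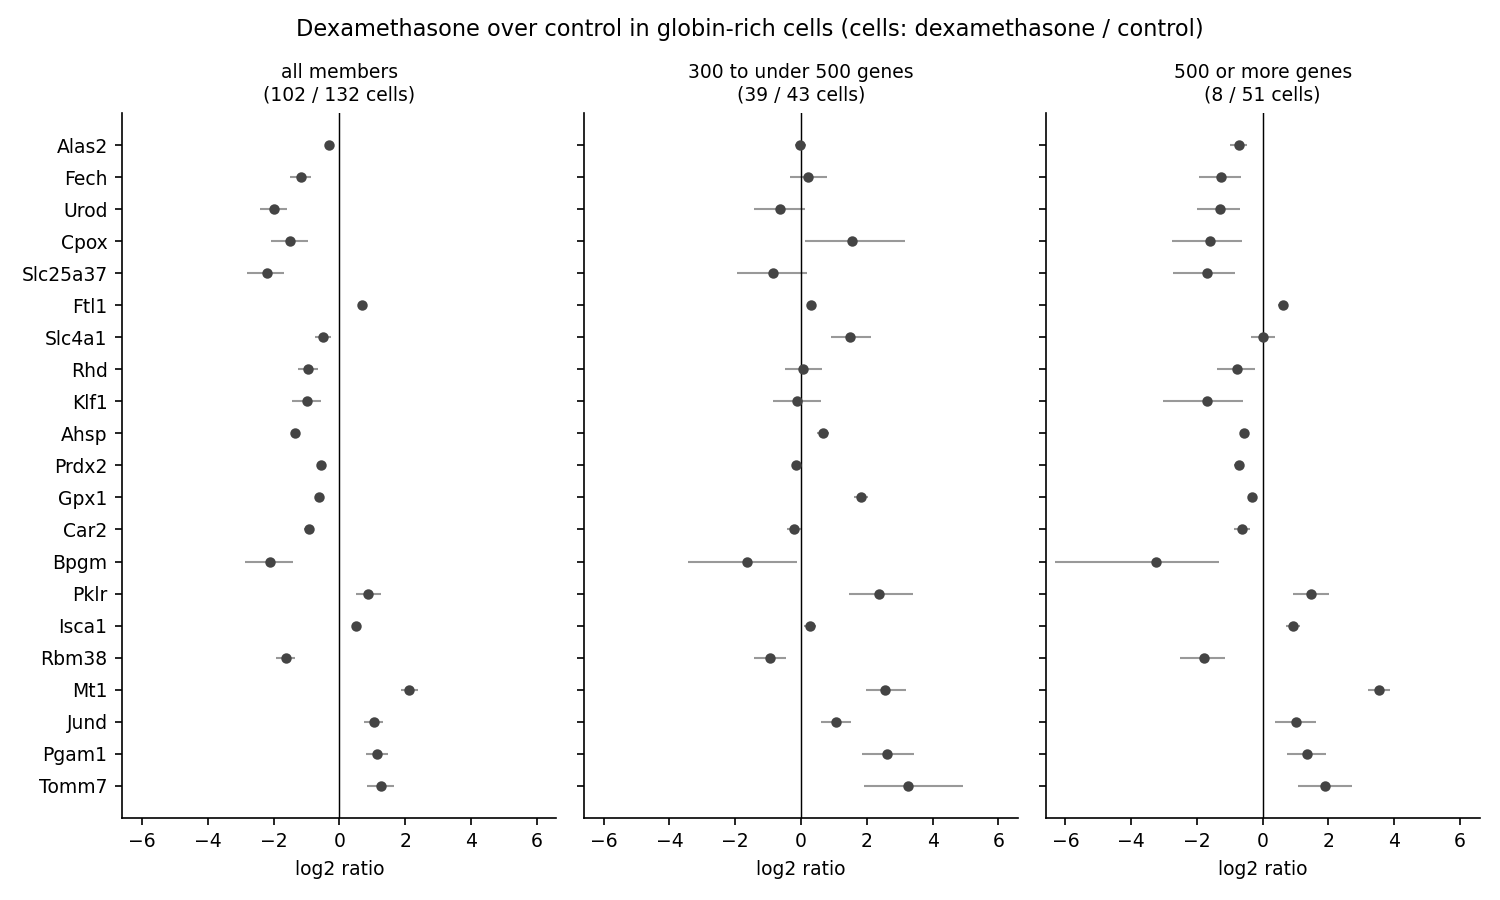
Points give the log2 ratio of dexamethasone over control CPM with its counting interval for all globin-rich cells (left), cells of 300 to under 500 genes (middle) and of 500 or more (right), the last pair without microglia-RNA and embryonic-globin cells; genes under 20 UMIs are left blank. Ahsp and Slc4a1 lie below 0 on the left and above 0 in the middle, while Mt1, Jund, Pgam1, Tomm7 and Pklr lie above 0 in all 3.

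Fewer genes were higher than lower in the dexamethasone library, and several of them were higher within bands too. Genes picked by their library ratio also had to keep the same sign in the 60 to 80% band of globin share. That band shares cells with the bands of gene number, so agreement within bands is partly built in. Mt1, a metallothionein that binds metals and that glucocorticoids are known to induce, had 473 UMIs in dexamethasone and 159 UMIs in control cells (1909 and 438 CPM, log2 2.13, interval 1.86 to 2.39). It was found in 32 of 102 dexamethasone and 46 of 132 control cells, and a single cell held 30.4% of its dexamethasone UMIs and another 23.9% of its control UMIs. The ratio was 2.57 (1.99 to 3.19) at 300 to under 500 genes and 3.52 (3.20 to 3.86) at 500 or more, against 0.43 in other kept cells. Of 18 glucocorticoid response genes only 3 reached 50 UMIs, Mt1, Cebpb (0.52) and Zfp36l2 (0.21), and the intervals of Cebpb and Zfp36l2 span 0.

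The glycolytic enzyme Pgam1 was 1.15 higher (interval 0.81 to 1.49) in all globin-rich cells and 2.61 at 300 to under 500 genes, and Pklr 0.88 and 2.36. Tomm7, of the mitochondrial import pore, was 1.26 and 3.24 higher, and Jund, a transcription factor of the AP-1 family, 1.05 and 1.05. In other kept cells the same ratios were 0.25 for Pgam1, 0.58 for Tomm7 and 0.46 for Jund. Btg2, an antiproliferative gene, was 1.38 higher (0.77 to 2.01), with 32.8% of its dexamethasone UMIs in 1 cell.

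RNA of the mitochondrially encoded genes with Mt- symbols was lower in the dexamethasone library in all 3 bands. Mitochondrial features under other names are not in these sums, and their library ratios are not given. Pooled, 11 of 12 measured genes were lower in the dexamethasone library, 9 by at least 2-fold, with a median of -1.25, and in the low set all 8 measured were lower by at least 2-fold. Within bands the sum was lower at 200 to under 300 genes (-1.94, interval -2.20 to -1.68), at 300 to under 500 (-3.47) and at 500 or more (-0.68, -0.80 to -0.56). A few control cells carry much of the last pair: 3 cells at 300 to under 500 genes and 1 at 500 or more had at least 20% of their non-haemoglobin UMIs from these genes, up to 45.6% and 41.6%, and 0 dexamethasone cells did. Without them the sum was -1.97 (-2.15 to -1.80) at 300 to under 500 genes and -0.34 (-0.46 to -0.22) at 500 or more, a setting added after the data were seen. Other kept cells showed the same direction, at -0.94 for the sum. The part of cell quality in these values was not tested. Pooled ribosomal protein genes leaned the other way, with 55 of 62 above 0 and a median of 0.30. Within bands 33 of 60 were above 0 at 200 to under 300 genes and 36 of 66 at 300 to under 500, with medians of 0.03 in both. At 500 or more, with 8 dexamethasone cells, 51 of 67 were above 0 and the median was 0.32. Their sum was 0.13, 0.17 and 0.22 higher in the 3 bands.

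The lowest genes in the dexamethasone library included Ifit1bl, with 11 UMIs in 7 cells against 158 UMIs in 31 control cells (-3.29, interval -4.32 to -2.41), the galectin Lgals5 (-1.69) and the sialic acid enzyme Cmas (-1.93). Lgals5 was 0.94 at 300 to under 500 genes (interval 0.18 to 1.74) and -2.06 at 500 or more, so it had opposite signs in the 2 bands. Cmas was 0.17 at 300 to under 500 genes on 12 and 11 UMIs, with an interval that spans 0 (-1.14 to 1.49), and -3.46 at 500 or more on 2 and 105 UMIs (-6.52 to -1.57). Ttr, the thyroid hormone carrier made by the choroid plexus, had 0 UMIs in dexamethasone and 171 UMIs in control cells, of which 1 cell held 82.5%. Lyve1, a border macrophage gene, had 56 and 253 UMIs (-1.62). Most of these UMIs lay in the 12 and 16 cells with microglia RNA. The whole border macrophage list, Lyve1 included, had only 12 and 57 UMIs in the low set.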

How the data were processed

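The authors deposited 1 table of raw UMI counts per gene and cell barcode for each of 2 libraries. Cell Ranger 7.0.0 and the Rnor_6.0 genome build are named in the submitters' processing notes. Globin-rich cells were taken by the stated rule, and all 11 haemoglobin genes, Hbbl1 and Hbq1b included, were left out of the CPM total. The planned total had held both of those genes, and leaving them out was decided after the data were seen. Counts were summed over cells per library. Counting intervals at the 95% level are Clopper-Pearson for shares, Poisson for CPM and conditional binomial for ratios, and floors are 3 counts. UMIs limit the effect of amplification, but intervals do not cover differences between animals or preparations.

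Members and lists were chosen with earlier results of these data known. Of 327 list entries, 16 had no symbol match. Named genes were the rule and marker genes, the leading genes of each list by UMIs or library ratio, and the genes with the most extreme ratios, over at least 100 UMIs. Genes with the most extreme library ratios also had to have the same sign in the 60 to 80% band of globin share. List exceptions such as Add1 and Sod1, and Mdk, Slc25a39, Sptb, Gata1, Zfpm1, Ube2o, Car2, Cebpb, Zfp36l2 and Ube2c were named after their values were seen, and some genes that the rule names are not reported here. Bands by gene number were also added then, because bands of globin share were uneven. Doublets were not removed. Promoter sequences come from RefSeq (GRCr8), a different assembly from that of the counts, and serve for sequence only. Python 3.11.15, numpy 2.4.6, scipy 1.17.1, pandas 2.3.3 and matplotlib 3.10.9 were used, and the procedure was tested on simulated data. Alternatives varied the globin share, gene and mitochondrial limits, total, pooling and UMI minimum.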

Additional observations from a re-analysis of the deposited data

Results flagged for a closer look

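Globin-rich barcodes were 27.9% of the barcodes that failed the cell filters in the dexamethasone library, a signal in barcodes that the comparisons do not use, against 3.69% in the control library. Hbbl1, a haemoglobin gene outside the selection rule, took 30.3% of all UMIs of globin-rich dexamethasone cells and 23.9% of those of control cells.

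Of 64 named genes outside haemoglobin, 22 had a library ratio of opposite sign in globin-rich and in other kept cells. The 64 were partly chosen by their library ratio in globin-rich cells, and the share over all genes was not computed. Some of the ratios in other kept cells lay near 0, such as that of Slc3a2 (-0.002), so the count describes only these genes. In 5 of them, Slc4a1, Glrx5, Nfe2, Rbm38 and Mki67, the counting intervals of both ratios lay clear of 0, and in Nfe2 and Rbm38 the ratio in globin-rich cells was also at least 2-fold. The Slc4a1 ratio in other kept cells rests on 10 and 3 UMIs. For Slc4a1 and Glrx5 the negative sign in globin-rich cells held only in the pooled values. At 200 to under 300, 300 to under 500 and 500 or more genes, Slc4a1 stood at 0.83, 1.50 and 0.01. Glrx5 stood at 0.69, 0.85 and 0.03 in these bands. For Mki67, 1 globin-rich dexamethasone cell held 52 of the 67 UMIs counted at 500 genes or more. Nfe2, a transcription factor of erythroid and megakaryocytic cells, had a dexamethasone over control log2 ratio of -1.10 in globin-rich cells, on 14 and 44 UMIs, against 0.65 in other kept cells. Rbm38 had -1.62 in globin-rich cells, on 120 and 541 UMIs, against 0.29. In the same 3 bands Rbm38 stood at 2.74 (on 30 and 2 UMIs), -0.93 and -1.80. The difference between the 2 kinds of cell was not tested, since each group is 1 library.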

How the results depend on the processing

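No paired analysis was possible because each group is 1 library, and no library could be left out. Of 2055 single-gene and class values under alternatives, 1724 counted as the same, 309 moved further and 22 changed sign. The 22 are changes from a main ratio of at least 2-fold, and sign changes of smaller ratios are not among them. Ratios of globin-rich over other kept cells counted as the same when they did not cross the 2-fold limit. Other values counted as the same within the counting interval of the main value. Ratios under 20 UMIs are not given. The cause of these shifts was not tested except where fewer cells or genes enter by construction. At 500 genes or more, globin-rich cells were 0.490% of kept cells in the dexamethasone and 0.867% in the control library; with no minimum they were 3.26% in the dexamethasone library. Leaving out cells at or above the 5th percentile of microglia RNA kept 0.646% in the control library.

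Genes at least 2-fold lower than in other kept cells numbered 2468 at a globin share of 50%, 424 at 500 genes or more, 4959 by per-cell means, 2573 without cells holding microglia RNA, and 305 (with 217 higher) where 20 UMIs were counted or expected. On all UMIs 88 were higher and 9397 lower, and with only the 9 symbols left out 146 and 7617. Erythroid genes higher than in other kept cells were 32 of 75 on all UMIs and 38 of 44 at 100 UMIs.

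Genes lower in the dexamethasone library numbered 115 at a globin share of 50%, 36 without cells at or above the 5th percentile of microglia RNA, 208 by per-cell means, 121 weighted by globin band and 21 of 251 in cells of 300 to under 500 genes. Higher and lower genes were 72 and 112 at 500 genes or more, 15 and 36 at 100 UMIs, 709 and 1028 at 5 UMIs, and 12 and 132 with only the 9 symbols left out. Erythroid genes below 0 were 25 of 39 without cells at or above the 5th percentile of microglia RNA, 73 of 97 at 5 UMIs and 9 of 26 at 300 to under 500 genes.

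On all UMIs the ratio over other kept cells was -0.11 for Urod, -0.66 for Cpox, -0.40 for Gpx1 and -1.38 for Bpgm in the dexamethasone library, and in the dexamethasone and control libraries -1.02 and -0.72 for Fth1, -1.65 and -1.53 for Ftl1, -0.19 and -0.30 for Gabarapl2, and -1.82 and -0.80 for Eif2ak1. With only the 9 symbols left out, Ftl1 was -0.43 and -0.11, and in the dexamethasone library Bpgm -0.16 and Eif2ak1 -0.60. At 300 to under 500 genes the dexamethasone over control ratio was 0.66 for Ahsp, 0.22 for Fech, 1.54 for Cpox, 0.17 for Cmas, 0.94 for Lgals5 and 0.29 for Tuba4a.

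Embryonic genes were 1.40% of haemoglobin UMIs pooled in the dexamethasone library, 3.15% as a mean over cells and 0.0236% without the 5 embryonic-globin cells. Unthinned shares with a UMI were 93.1% in the dexamethasone and 97.0% in the control library for Alas2, 48.0% and 59.1% for Slc4a1, and 85.3% in the dexamethasone library for Ahsp. The microglia list had a median over cells of 2670 CPM in dexamethasone and 8502 CPM in control cells.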
